A study of Rattus norvegicus with 12 samples.

Results

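The nuclear respiratory chain subunits are the genes in the cell nucleus that encode protein parts of the 5 enzyme complexes of oxidative phosphorylation. They were chosen by gene name (Nduf followed by a, b, c, s or v and a digit, Sdha to Sdhd, Uqcr, Cox4 to Cox8 and Atp5), as protein-coding genes outside the mitochondrial genome, by a rule that uses no measured values, though the gene family was picked with earlier results of these data known. The rule took 77 gene models with 74 different names out of 19687 genes listed in the deposited tables: 36 of complex I, 4 of complex II, 6 of complex III, 13 of complex IV and 18 of complex V. In each comparison 73 of them had enough reads to be tested, 34, 4, 6, 12 and 17 by complex. The lungs came from male Sprague-Dawley rats, 9 weeks old by the labels, and every rat, controls included, had been injected with monocrotaline (MCT), a plant toxin that causes pulmonary hypertension. One group received phosphate-buffered saline (PBS, the vehicle), and the others angiotensin II (AngII), the natural agonist of the angiotensin II type 1 receptor, TRV023, a β-arrestin-biased agonist of that receptor, or losartan, its antagonist. Each group had 3 rats with 1 RNA-sequencing library each, so 12 in all. No rats without MCT were analysed here, and the doses of the drugs differed.

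Complex I oxidises NADH, complex II oxidises succinate, and both pass electrons through ubiquinone to complex III and then through cytochrome c to complex IV, which reduces oxygen. Complexes I, III and IV pump protons across the inner mitochondrial membrane, and complex V, the ATP synthase, lets them back to make ATP. Only complex II is built from nuclear genes alone. In the other 4 the mitochondrial genome supplies some of the catalytic or membrane subunits, and the nucleus supplies the rest, including a large number of small accessory subunits that hold no redox centre.

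Transcription of these nuclear genes is known to depend on factors such as NRF1, the ETS factor GABPA (also called NRF2), YY1, SP1 and the estrogen-related receptors (ERR), so the promoter windows of the members were read for the letters these factors recognise. Of the 74 names, 57 matched a RefSeq symbol and 17 a RefSeq synonym, and 64 had a window, 1 each, from 250 bases before to 50 bases after the gene start (build GRCr8). Among those without a window were Atp5h, Cox6a1 and Cox6c. On either strand, GCGCATGC (NRF1) was present in 12.5% of the 64 member windows and 2.47% of all 33469 windows, CCGGAAGT (ETS) in 12.5% and 3.81%, AAGATGGC (YY1) in 21.9% and 3.17%, AAGGTCA (ERR) in 14.1% and 4.61%, and GGGCGG (SP1) in 39.1% and 33.1%. At least 1 of the first 3 was present in 39.1% of member windows and 8.84% of all windows. In none of the member windows did different motifs overlap. The stretches below show such matches upstream of members described in the following paragraphs. The letters of 1 match are in capitals, 5′ to 3′ on the strand of the gene. Further overlapping NRF1 matches in the stretches of Ndufa11 and Atp5g2 stand partly in lower case. The stretch of Ndufa11 lies at chr9:1637491-1637550 (plus strand), Sdhb at chr5:158547741-158547800 (plus) and Atp5g2 at chr7:135678241-135678300 (minus), each with an NRF1 match. Ndufa13 at chr16:19560373-19560432 (plus), Ndufs1 at chr9:72073772-72073831 (minus), Uqcrq at chr10:38089979-38090026 (minus) and Cox8a at chr1:213833648-213833707 (minus) have an ETS match. The ETS letters were thus present upstream both of the member with the highest AngII value (Ndufa13) and of the one that was lower at an unadjusted p under 0.05 (Ndufs1).
Ndufa11: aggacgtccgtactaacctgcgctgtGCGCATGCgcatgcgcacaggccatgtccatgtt
Sdhb: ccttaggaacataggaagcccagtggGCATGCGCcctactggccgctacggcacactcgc
Atp5g2: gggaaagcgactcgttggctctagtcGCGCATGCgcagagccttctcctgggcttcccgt
Ndufa13: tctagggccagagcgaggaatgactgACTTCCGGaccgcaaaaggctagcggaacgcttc
Ndufs1: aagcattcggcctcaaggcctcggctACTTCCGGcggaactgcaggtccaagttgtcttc
Cox8a: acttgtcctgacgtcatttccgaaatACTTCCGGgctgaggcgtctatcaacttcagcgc
Uqcrq: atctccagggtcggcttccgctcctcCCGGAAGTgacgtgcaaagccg
A match is a description of letters, and factor binding was not measured.

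In the vehicle lungs most members were abundant. Levels are given as FPKM (counted fragments scaled to gene length and library depth), which can be compared between genes. The median member of complex I was at 71.5 FPKM, of complex II at 96.6, of complex III at 91.0, of complex IV at 134 and of complex V at 174. The highest were Atp5b, the catalytic β subunit of the ATP synthase, at 419 ± 40.7 FPKM (SD, n = 3), Atp5g2, which encodes the c subunit of its rotating ring, at 327 ± 27.1, and Cox6a1, a nuclear subunit of cytochrome c oxidase, at 322 ± 27.1. In complex III, Uqcrq, a small subunit, was at 206 ± 22.8 and Uqcrh, the hinge protein, at 176 ± 23.4. In complex I, Ndufa11 was at 126 ± 3.81 and Ndufb8 at 125 ± 11.3, both accessory subunits of its membrane arm. In complex II, Sdhc, a membrane anchor, was at 113 ± 5.47, Sdhb, the iron-sulfur subunit, at 97.2 ± 2.9 and Sdha, the flavoprotein that binds succinate, at 66.2 ± 8.73. The lowest means were 66.2 FPKM in complex II (Sdha) and 45.9 in complex III (Uqcrc2, a core protein), so these complexes had no member with few reads.

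**Figure D1:**
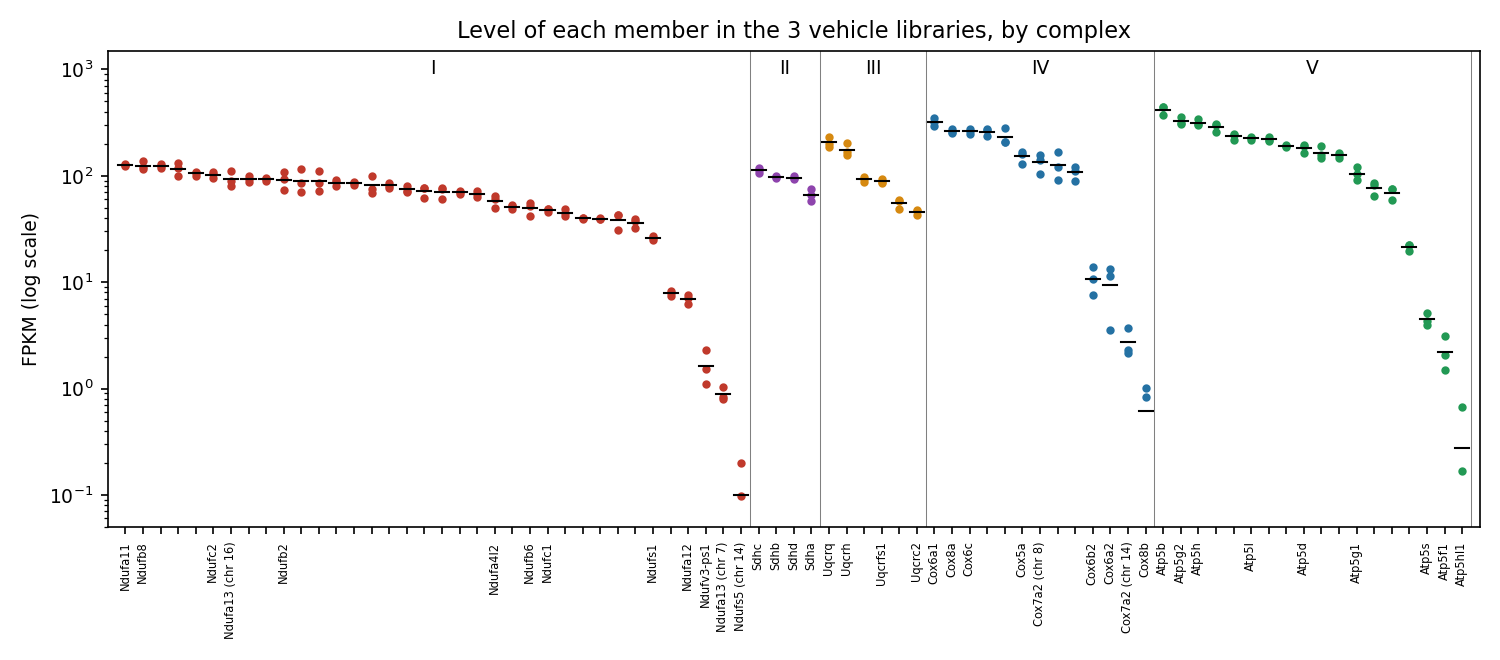
FPKM (log axis) of each of the 77 members in the 3 vehicle libraries, with members grouped by complex and ordered by mean. Points are libraries and black lines are means, libraries at 0 are not drawn, and only some members are labelled. The highest mean is that of Atp5b (419 FPKM), and 11 members have means below 10% of the median of their complex.

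The 11 members below 10% of the median of their complex were Ndufa12, Ndufv3-ps1, the Ndufa13 model on chromosome 7 and the Ndufs5 model on chromosome 14 in complex I, Cox6b2, Cox6a2, Cox8b and the Cox7a2 model on chromosome 14 in complex IV, and Atp5f1, Atp5s and Atp5hl1 in complex V. Several share a name or most of a sequence with another model (Ndufa13 on chromosome 16, Cox7a2 on chromosome 8), and how the authors' counting divided reads among such copies is not given in the sources used here, so their levels are uncertain. Ndufa12 at 6.97 ± 0.712 FPKM and Atp5f1 at 2.23 ± 0.809 FPKM encode subunits present in every complex I or ATP synthase, and these low values belong to the gene models in the tables. Ndufs5 on chromosome 2 was also low, at 7.87 ± 0.479 FPKM. Ndufv3-ps1 carries a pseudogene name but is listed as protein-coding. Atp5s and Atp5sl, in spite of their names, are no longer counted as subunits of the enzyme. The 4 members that were not tested were Ndufa13 (chromosome 7), Ndufs5 (chromosome 14), Cox8b and Atp5hl1, each with a vehicle mean under 1 FPKM.

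Isoforms known from other tissues stood far below their widespread partners. Cox6a2, the form of heart and skeletal muscle, was at 13.3, 11.4 and 3.56 FPKM in the vehicle libraries, against 320, 296 and 350 FPKM for Cox6a1. Cox8b, another muscle form, was at 0, 1.02 and 0.837 FPKM, and Cox8a was at 258, 251 and 278. Cox6b2, known from testis, was at 7.57, 13.9 and 10.8 FPKM, and Cox6b1 at 276, 237 and 269. None of these pairs overlapped in any of the 3 libraries. The paralog Ndufa4l2, known for its induction by hypoxia, was closer to its partner, at 58.1 ± 7.61 FPKM against 124 ± 4.63 for Ndufa4, whose product is now counted with complex IV. Of the 3 genes that encode the same mature c subunit, Atp5g2 was at 327 ± 27.1 FPKM, Atp5g3 at 190 ± 4.28 and Atp5g1 at 105 ± 14.6, with no overlap between neighbours in that order. Cox4i1, which the naming rule misses, was at 487 ± 51.5 FPKM and Cox4i2, a form known from lung, at 56.8 ± 8.4. Cox7a1, Cox7b2 and Cox8c were not analysed here.

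With AngII, most small subunits had higher values than in vehicle. Some of the long genes, among them Atp5b (the catalytic β subunit of the ATP synthase), Sdha and Ndufs1, were near or below it. None of these differences passed the adjusted edgeR test. Other genes over 1000 bases had higher values, such as Uqcrfs1 of complex III. Length here is the deposited gene length, not the span on the chromosome. Sdhb, for example, is listed at 968 bases and spans 163197045 to 163217312 on chromosome 5. From 1000 to 2000 bases, 13 of the 17 tested members were above 0, where 2769 of all 5133 genes of that class were. The median log2 fold change of the 73 tested members was 0.277, with 66 of them above 0. That of all 15059 genes tested was -0.0249, with 7136 above 0. No member passed an adjusted p under 0.05 in edgeR's quasi-likelihood test (Benjamini-Hochberg over all genes), where 0.0133% of all genes did. The smallest adjusted p of a member was 0.295. By DESeq2, 1 member passed, Ndufa13 (adjusted p = 0.0214), against 1.45% of all genes. At an unadjusted p under 0.05 in edgeR, 29 members (39.7%) were higher and 1 (1.37%) was lower, where 6.54% and 5.39% of all genes were. In normalized CPM (counts scaled to library depth), the 3 AngII libraries lay above all vehicle libraries for 27 members and below them for 2 (Ndufs1 and Ndufa10), where 9.46% and 9.17% of all genes did so. In bulk lung, a change in RNA per cell and a change in the number of cells of a type cannot be told apart.

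By complex, the median log2 fold change with AngII was 0.296 in complex I (14 of 34 higher at an unadjusted p under 0.05 and 1 lower), 0.179 in complex II (1 of 4 higher), 0.258 in complex III (2 of 6), 0.384 in complex IV (4 of 12) and 0.276 in complex V (8 of 17). Of all genes tested, 6.54% were higher and 5.39% lower at that p, and 14.9% of those under 1000 bases were higher. All 4 members of complex II and all 12 of complex IV were above 0. Of all genes under 1000 bases, the class of these 12, 1547 of 2371 were. Values ranged from 0.0065 to 0.272 in complex II, -0.167 to 0.444 in complex III and 0.224 to 0.613 in complex IV. They ranged more widely in complexes I, from -0.338 to 0.734, and V, from -0.571 (Atp5f1, a model with few reads) to 0.548. The differences between complexes were not tested, since their members share the 6 libraries and differ in length.

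**Figure D2:**
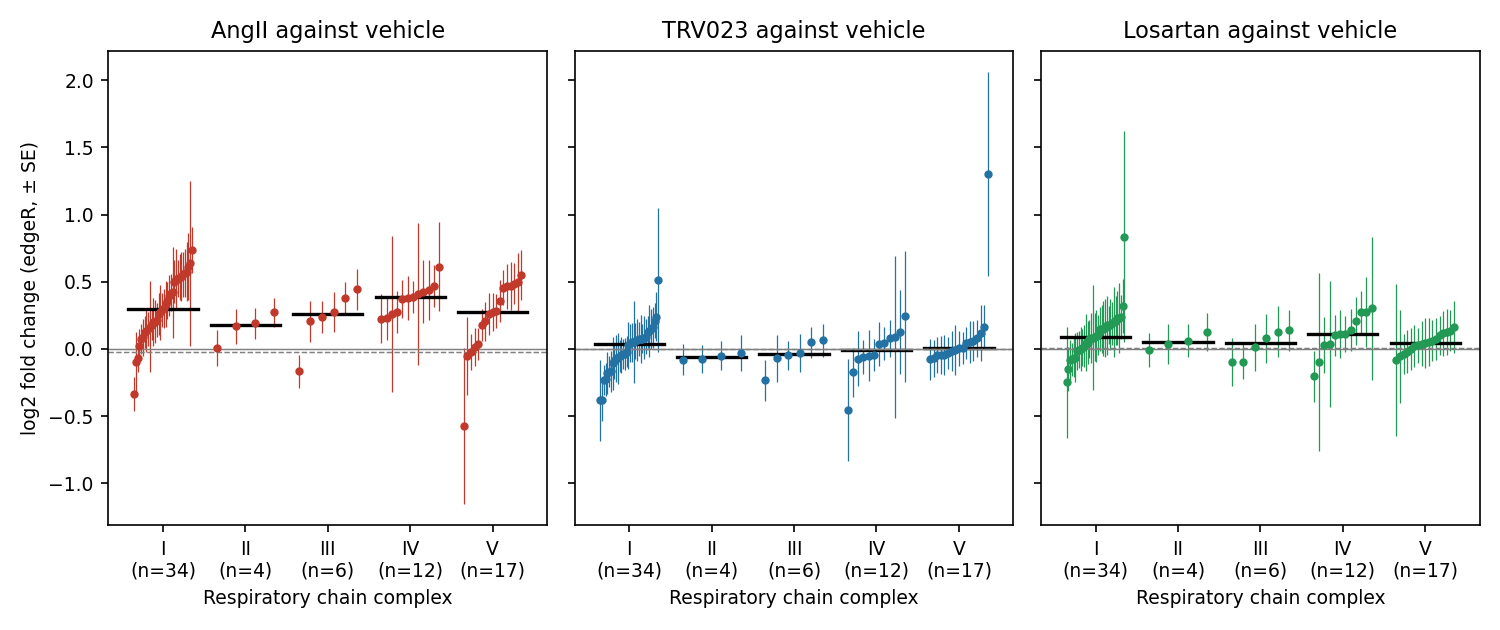
Log2 fold change of each tested member against vehicle (edgeR, points with SE), by complex, for AngII, TRV023 and losartan, with 3 rats a group. Black lines are medians of the complex and the dashed line is the median of all genes. AngII medians run from 0.179 to 0.384, and those of the other drugs lie between -0.062 and 0.111.

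Among complex I members, Ndufa13 (chromosome 16, 21191327 to 21198326 in the coordinates of the tables, whose build is not given in the sources used here), an accessory subunit also known as GRIM-19, had the highest value. It was at 123, 152 and 150 FPKM in the AngII libraries and at 90.03, 80.4 and 111 FPKM in vehicle. All 3 AngII libraries lay above the vehicle range, with a log2 fold change of 0.73 (SE 0.171, 95% confidence interval 0.346 to 1.12, adjusted p = 0.295). Ndufc1, a small accessory subunit, was at 60.4, 65.8 and 62.0 FPKM against 49.3, 45.8 and 48.6, without overlap, with a log2 fold change of 0.52 (SE 0.139, adjusted p = 0.325). Ndufb8 was at 137, 190 and 174 FPKM against 117, 121 and 138, so that Ang2_922 lay within the vehicle range in FPKM, and its log2 fold change was 0.56 (SE 0.166). Ndufb6, of the same membrane arm, was at 59.0, 72.2 and 65.7 FPKM against 51.5, 41.97 and 56.0, with a log2 fold change of 0.53 (SE 0.17).

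Ndufs1, the largest core subunit, which carries iron-sulfur clusters, went the other way. It was at 21.6, 16.1 and 18.7 FPKM with AngII and at 27.3, 25.95 and 24.7 FPKM in vehicle. The groups did not overlap, and the log2 fold change was -0.34 (SE 0.127, 95% confidence interval -0.627 to -0.0481, adjusted p = 0.382). The 7 core subunits that the nucleus supplies to complex I had a median of 0.149, with 1 higher and 1 lower at an unadjusted p under 0.05, and the 25 accessory subunits had a median of 0.361, with 13 higher. Of all genes tested, 6.54% were higher and 5.39% lower at that p. The core genes were also longer by deposited gene length, with a median of 1056 bases against 605.

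In complex II, Sdhb was at 112, 97.8 and 112 FPKM with AngII and at 100, 94.4 and 97.1 FPKM in vehicle, with Ang2_931 inside the vehicle range and a log2 fold change of 0.27 (SE 0.11, adjusted p = 0.397). Sdha, in contrast, was at 67.9, 57.8 and 56.7 FPKM against 65.9, 57.6 and 75.1, which overlap throughout, and its log2 fold change was 0.0065 (SE 0.133, 95% confidence interval -0.297 to 0.31). Sdhc was at 113, 122 and 115 FPKM against 114, 107 and 117. The deposited gene length is 968 bases for Sdhb and 2277 for Sdha, and the difference in log2 fold change between these genes was not tested.

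In complex III, Uqcrq, which binds ubiquinone near the cytochrome b subunit, was at 222, 285 and 255 FPKM with AngII against 199, 231 and 187, with Ang2_922 inside the vehicle range. Its log2 fold change was 0.44 (SE 0.152, adjusted p = 0.372). Uqcrfs1, the Rieske iron-sulfur protein, was at 109, 111 and 96.1 FPKM against 85.4, 87.3 and 93.5, without overlap, with a log2 fold change of 0.38 (SE 0.116). Uqcrc2 was at 41.8, 32.6 and 37.7 FPKM against 48.2, 43.1 and 46.4, below every vehicle library in FPKM but not in normalized CPM, and its log2 fold change was -0.17 (SE 0.12, 95% confidence interval -0.441 to 0.107). Uqcrh was between these, at 192, 219 and 174 FPKM against 169, 158 and 203.

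In complex IV, Cox8a was at 313, 330 and 295 FPKM with AngII against 258, 251 and 278 in vehicle, without overlap (log2 fold change 0.39, SE 0.117, adjusted p = 0.356). Cox6c was at 283, 384 and 321 FPKM against 266, 247 and 274, also without overlap (0.47, SE 0.154). Cox5a was at 172, 194 and 173 FPKM against 162, 167 and 131, without overlap (0.37, SE 0.138). These nuclear subunits surround the catalytic core that the mitochondrial genome encodes, and their deposited gene lengths are all under 1000 bases. Cox6a1 was at 343, 458 and 341 FPKM against 320, 296 and 350, which overlap (0.38, SE 0.163). The lowest value of complex IV was that of Cox7a2 on chromosome 8, at 0.22 (SE 0.183), with 123, 147 and 155 FPKM against 141, 104 and 156. Moving Ndufa4 from complex I to complex IV gave medians of 0.302 and 0.38 for these complexes.

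In complex V, Atp5h, the d subunit of the peripheral stalk, was at 362, 430 and 393 FPKM with AngII against 310, 339 and 302 in vehicle, without overlap. Its log2 fold change was 0.46 (SE 0.131, 95% confidence interval 0.16 to 0.754, adjusted p = 0.341). Atp5d, the δ subunit of the central stalk, was at 200, 243 and 260 FPKM against 193, 194 and 165, again without overlap (0.49, SE 0.152). The c-ring genes had log2 fold changes of 0.55 (Atp5g1, SE 0.186), 0.47 (Atp5g2, SE 0.169) and 0.28 (Atp5g3, SE 0.125). Atp5b was at 368, 362 and 397 FPKM against 441, 372 and 444, which overlap, and its log2 fold change was -0.021 (SE 0.136, 95% confidence interval -0.332 to 0.289). The other long genes of the F1 head, Atp5a1 and Atp5c1, were named after their values were seen. They were at 0.034 (SE 0.118) and 0.012 (SE 0.141), with deposited gene lengths of 1735 and 2116 bases. The lowest value was that of the low-level model Atp5f1, at -0.57 (SE 0.581), with 2.20, 0.734 and 1.20 FPKM against 3.10, 2.07 and 1.51.

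**Figure D3:**
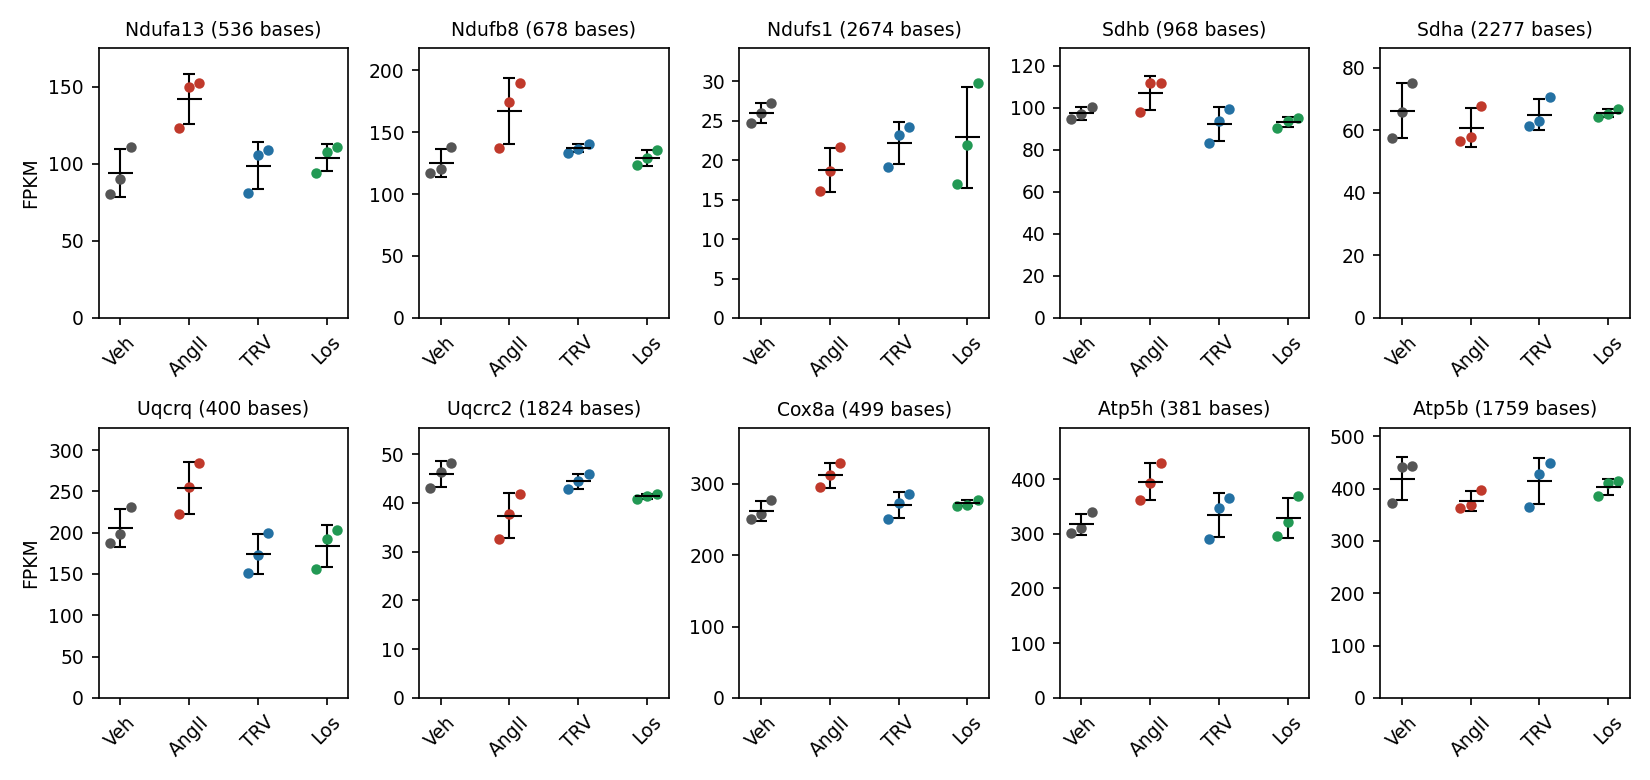
FPKM of 10 members in each library (points), with mean and SD (n = 3), in vehicle, AngII, TRV023 and losartan lungs, and with axes from 0. Short members such as Ndufa13 (536 bases) and Cox8a (499 bases) have their 3 AngII points above the vehicle points, whereas the longer Ndufs1 (2674 bases) has them below, and those of Sdha (2277 bases) overlap with vehicle.

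Gene length ran through these values. The members are short: 56 of 77 (72.7%) have a gene length under 1000 bases in the tables, against 23.7% of all listed genes, and the median lengths are 596 and 1782 bases. With AngII, log2 fold changes fell with length across all genes tested (Spearman's rho -0.251, n = 15059) and across members (rho -0.566, n = 73). Genes are not independent replicates, so these are descriptions. The 52 tested members under 1000 bases had a median of 0.392, and the 2319 other genes of that class one of 0.188. From 1000 to 2000 bases, the medians were 0.168 for 17 members and 0.0344 for other genes, and over 2000 bases they were -0.166 for 4 members and -0.0994 for other genes. These 4 were Ndufs1 at -0.34, Sdha at 0.0065, Atp5c1 at 0.012 and Atp5f1, a model with few reads, at -0.57 (SE 0.581). The deposited FPKM of Atp5c1 and Atp5f1 do not follow their listed lengths, so the length class of these 2 is uncertain. At an unadjusted p under 0.05, 27 of the 52 short members (51.9%) were higher, against 14.1% of the other short genes. Of the members from 1000 to 2000 bases, 2 of 17 (11.8%) were higher, against 7.43% of other genes. Members and other genes were not matched for read level, or for length within a class. Under 1000 bases their median lengths were 518.5 and 669 bases.

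Within complexes the same order of lengths was seen. Members of complex I under 1000 bases had a median of 0.418 (25 genes) and longer ones a median of 0.136 (9 genes). In complex V the medians were 0.457 (11 genes) and -0.0047 (6 genes, among them Atp5f1 with few reads). All 12 tested members of complex IV are under 1000 bases, so its higher median of 0.384 cannot be told apart from its lengths, and among short genes it was the lowest of the medians of complexes I, IV and V.

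**Figure D4:**
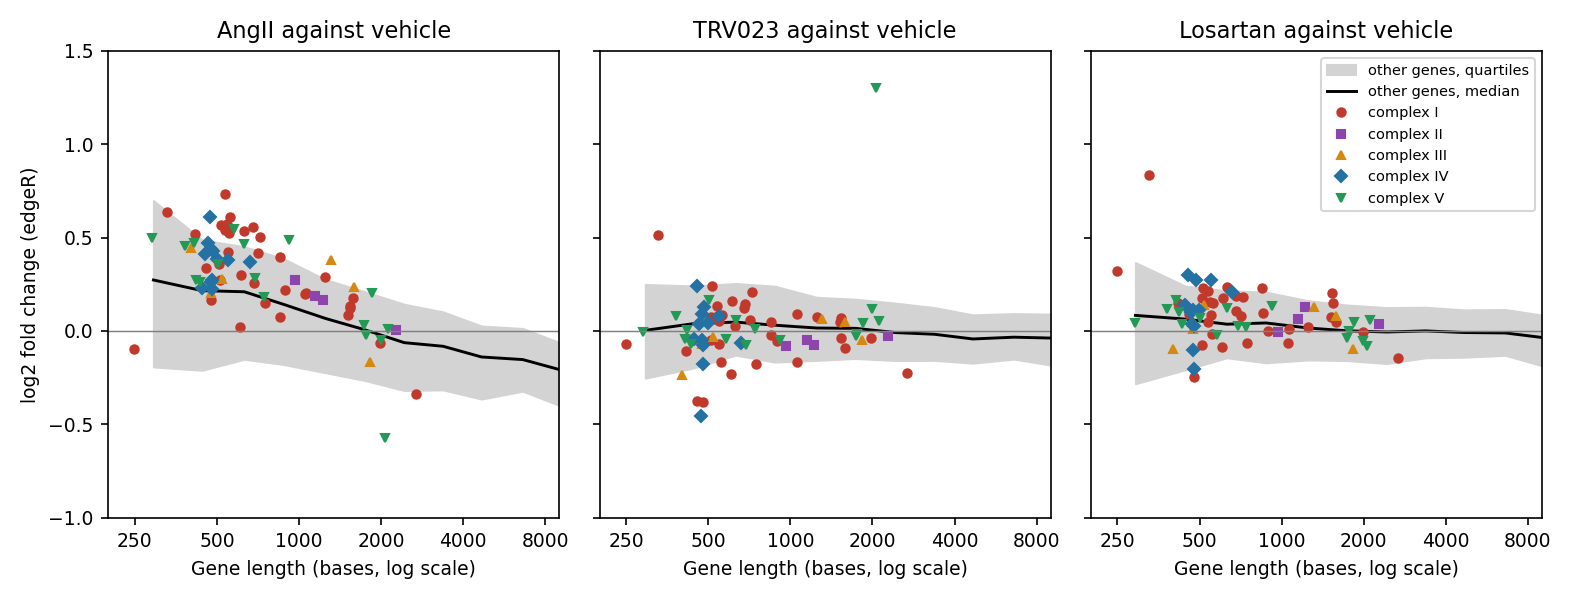
Log2 fold change against vehicle (edgeR) by gene length in bases (log axis) for the 73 tested members, marked by complex, with the median and quartiles of all other genes in length bins (black line and grey band), for AngII, TRV023 and losartan. With AngII the black line falls with length and members under 1000 bases lie around their median of 0.392, and among members rho is -0.566 with AngII, 0.08 with TRV023 and -0.28 with losartan.

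When the length trend of each library was removed with a lowess curve over all genes, the AngII median of the members was 0.125 and that of all genes 0.00218. The medians were then 0.122, 0.102, 0.126, 0.168 and 0.0917 in complexes I to V. At an unadjusted p under 0.05, 6 members (8.22%) were then higher, where 6.06% of all genes were. These 6 were Ndufa13 (0.51, SE 0.141), Uqcrfs1, Ndufb8, Atp5d, Ndufc1 and Ndufs7, a core subunit of complex I named after its value was seen. Ndufs1 remained lower, at -0.28 (SE 0.121). In this fit 59 of 73 members were above 0. The curve also takes in the members' own values, and among genes under 1000 bases without it the shares differed as given above, so how much of the AngII values goes with length was not tested.

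The 3 AngII libraries did not have equal values. The mean log2 CPM of the tested members, centred on the 12 libraries, was 0.0572 in Ang2_922, 0.356 in Ang2_931 and 0.191 in Ang2_933, and -0.0882, -0.145 and -0.0357 in Veh_923, Veh_924 and Veh_963. All 3 AngII libraries lay above all vehicle libraries, also within each complex, but in complex I Ang2_922 at 0.00658 was next to Veh_963 at -0.00581. Of the 12 libraries, Ang2_931 was highest in each of the complexes. Without it, 9 members were higher at an unadjusted p under 0.05 (3.56% of all genes), without Veh_923 there were 15 (4.62%) and without Veh_924 there were 18 (4.74%), against 29 with all libraries. The median stayed between 0.206 and 0.387 when any 1 library was left out. The 52 short members ranged from 0.0769 to 0.476 in the AngII libraries and from -0.16 to -0.045 in vehicle, and the 21 longer ones from 0.00853 to 0.0601 and from -0.11 to 0.036.

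**Figure D5:**
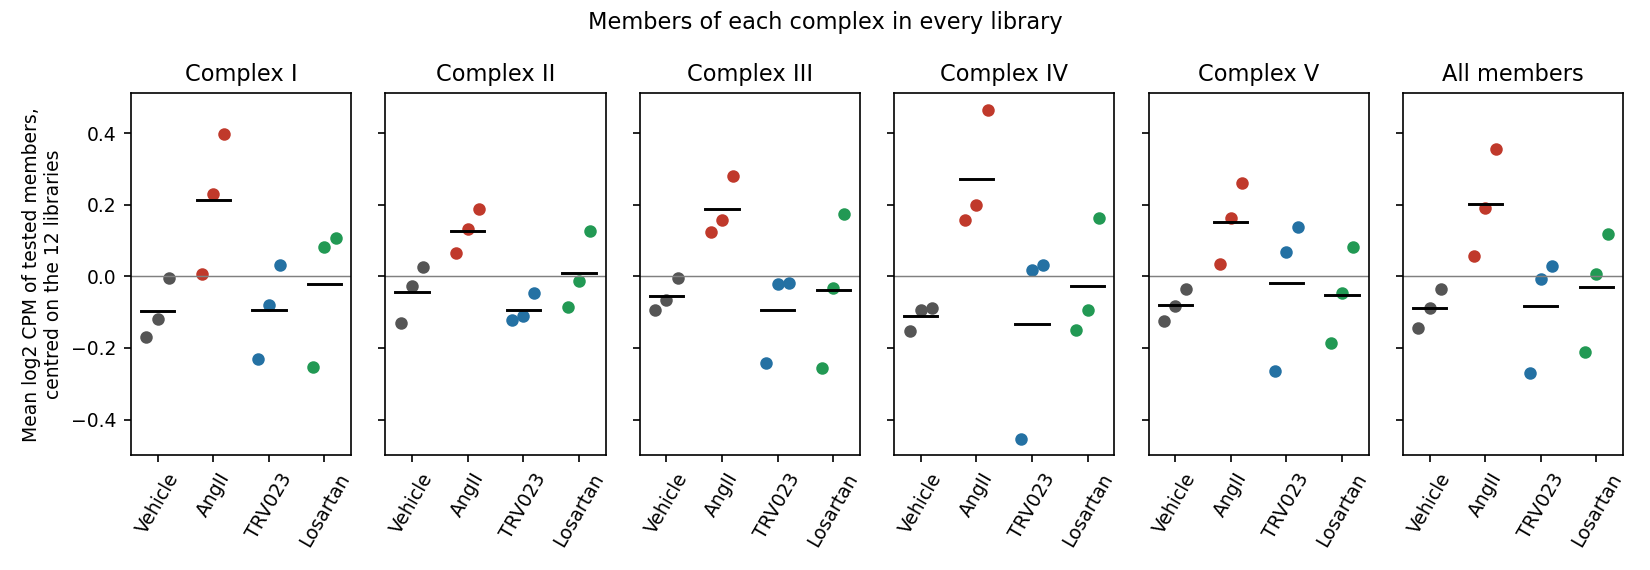
Mean log2 CPM of the tested members of each complex, and of all 73, in each of the 12 libraries, centred on the mean of the 12. Points are libraries and black lines are group means. Over all members, Ang2_931 (0.356) stands highest and Trv_918 (-0.27) lowest, and the TRV023 and losartan libraries spread on both sides of 0. In complexes II and III all TRV023 libraries lie below 0.

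The scaling of libraries also moved the AngII values. With library totals in place of TMM (trimmed mean of M values) scaling, the median of all genes was -0.157 and that of members 0.142, so that the gap between them was kept while 12 members, and 2.8% of all genes, were higher at an unadjusted p under 0.05. As a share of counted reads, which is the same scaling by library totals, members took 0.644%, 0.738% and 0.69% in the AngII libraries and 0.645%, 0.603% and 0.66% in vehicle, which overlap. Complex V took the largest part, 0.247% to 0.274% with AngII and 0.238% to 0.259% in vehicle.

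With TRV023, no member was distinguishable from vehicle after adjustment. Their median log2 fold change was -0.0156, with 35 of 73 above 0, and that of all genes was -0.00161, with 7544 of 15193 above 0. No member passed in edgeR (0.00658% of all genes) or in DESeq2 (0.724%). At an unadjusted p under 0.05, 0 members were higher (2.61% of all genes) and 1 was lower (2.96%). In normalized CPM, 0 members had all 3 TRV023 libraries above vehicle (4.69%) and 4 had them below (5.56%), namely Ndufs1, Ndufb5, Ndufc2 and Ndufs5 on chromosome 2, all of complex I. The medians by complex were 0.0359, -0.062, -0.0402, -0.0042 and 0.0064 in complexes I to V. For 60 of the 73 members the 95% confidence interval lay within a 1.5-fold change in either direction, so larger changes of these genes fall outside the intervals.

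The lower member was Ndufb2, an accessory subunit of complex I, at 75.4, 67.1 and 70.3 FPKM with TRV023 against 108, 74.3 and 94.3 in vehicle. The lowest vehicle library lay within the TRV023 range, and the log2 fold change was -0.38 (SE 0.16, adjusted p = 0.879). Ndufc2, next to Ndufc1 in the membrane arm, was at 88.7, 86.9 and 86.7 FPKM against 108, 94.6 and 105, without overlap (-0.23, SE 0.111, adjusted p = 0.936). Uqcrq was at 199, 152 and 173 FPKM against 199, 231 and 187 (-0.23, SE 0.152), and Cox6b2 had a log2 fold change of -0.45 (SE 0.377). The other members with the smallest p of their complex were Sdhb at -0.08, Sdhd at -0.07, Uqcrfs1 at 0.06, Cox7a2 on chromosome 8 at -0.18 and Atp5l at 0.16. The value furthest from 0 was that of Atp5f1, at 1.30 (SE 0.758, adjusted p = 0.961), and it rested on Trv_930 at 12.2 FPKM, with 2.65 and 1.51 FPKM in the other two TRV023 libraries. Without Trv_930 it was -0.099. The mean over members was 0.029, -0.27 and -0.0085 in Trv_917, Trv_918 and Trv_930, and without Trv_918 the median of the members was 0.0745.

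With losartan the members were likewise not distinguishable from vehicle. The median was 0.0781, with 56 of 73 above 0, against 0.00628 over all genes, with 7780 of 15156 above 0. No member passed in edgeR (0% of all genes) or DESeq2 (0.0396%), none was higher (0.686%) or lower (0.963%) at an unadjusted p under 0.05, and for none did the 3 losartan libraries lie above (2.78%) or below (2.99%) all vehicle libraries. The medians by complex were 0.0927, 0.0487, 0.0447, 0.111 and 0.0449. The members with the smallest p in complexes I and IV were Ndufa4l2 (0.32, SE 0.202), at 76.1, 55.4 and 80.0 FPKM against 49.7, 64.6 and 59.99, and Cox6a1 (0.27, SE 0.156), at 350, 394 and 376 FPKM against 320, 296 and 350. In both, the groups overlap. In the other complexes they were Sdhd at 0.13, Uqcrh at 0.14 and Atp5d at 0.14. The value furthest from 0 was that of Ndufv3-ps1, at 0.84 (SE 0.787), which has few reads. The mean over members was -0.211 in Los_925, 0.117 in Los_964 and 0.00775 in Los_965. Without Los_964 the median was -0.0134 and without Los_925 it was 0.183, so its sign depended on 1 library. Veh_963, Los_964 and Los_965 carry animal numbers of another series, which the labels do not explain, and without these 3 libraries the median was -0.102, with Los_925 as the only losartan library. The interval lay within a 1.5-fold change for 50 of 73 members.

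The drugs were compared with each other in 1 fit of all 12 libraries, in which 73 members and 15662 genes were tested and the comparisons share the drug libraries. No member, and 0% of all genes, passed in edgeR for AngII against TRV023, for AngII against losartan or for TRV023 against losartan. At an unadjusted p under 0.05, 26 members were higher and 1 lower with AngII than with TRV023, where 5.43% of all genes were higher and 5.43% lower, with a member median of 0.307. Against losartan, 12 were higher and 0 lower, where 4.69% and 4.49% of all genes were, with a median of 0.229. Ndufc1 had the smallest p in both, with log2 fold changes of 0.69 (SE 0.146, adjusted p = 0.264) and 0.56 (SE 0.146, adjusted p = 0.328). Between TRV023 and losartan, 0 were higher and 1, Ndufb2 at -0.46 (SE 0.161), was lower, where 2.29% and 2.27% of all genes were. Since 3 comparisons share the same vehicle libraries, values of a member against vehicle are not independent of each other.

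The mitochondrial genome encodes the remaining subunits of complexes I, III, IV and V, and its 13 protein-coding genes had larger AngII values than the nuclear members. All 13 were higher at an unadjusted p under 0.05, where 6.54% of all genes were, and none passed the adjusted test. Their median was 0.867 (0.757 with the length trend removed), with log2 fold changes from 0.749 to 1.402. The 13 genes were counted in the same libraries and are not independent results. Mt-atp8, of the ATP synthase, was at 354, 350 and 477 FPKM with AngII against 130, 205 and 156 in vehicle (1.402, SE 0.207, edgeR adjusted p = 0.192). They took 9.34% to 12.1% of counted reads with AngII and 5.54% to 7.41% in vehicle. Per read of the nuclear members there were 14.5, 16 and 17.5 reads of these genes in the AngII libraries and 9.95, 12.3 and 8.39 in vehicle, without overlap. The corresponding ranges were 6.28 to 10.8 with TRV023 and 8.24 to 15.3 with losartan. The difference between nuclear and mitochondrial genes was not tested.

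Genes that work with the members had the following values with AngII, where 6.54% of all genes were higher and 5.39% lower at an unadjusted p under 0.05. Of the subunits and carriers that the naming rule misses, 4 of 11 tested models (36.4%) were higher at that p and 0 lower. Their median was 0.27, and 8 were above 0. Cox4i1 was at 0.51 (SE 0.159) and Atpif1, the inhibitor of the ATP synthase, at 0.49 (SE 0.128). The Cycs models were at -0.22 (SE 0.166) and -0.32 (SE 0.327), and Cyc1 was at 0.097 (SE 0.142). Of 36 assembly factors, 4 (11.1%) were higher (median 0.0504), with Cox14 at 0.53 (SE 0.146) and Coa3 at 0.46 (SE 0.154), both of complex IV. Of 13 citric acid cycle genes, 0 were higher or lower (median -0.0173), with citrate synthase (Cs) at -0.25 (SE 0.166) and Idh3a at -0.21 (SE 0.13). Of 72 mitochondrial ribosomal proteins, 7 (9.72%) were higher and 2 lower (median 0.163), with Mrps14 at 0.48 (SE 0.165) and Mrps30 at -0.45 (SE 0.148). The 94 cytosolic ribosomal proteins, which are as short as the members (median 545 bases against 611 for the tested members), had 43 higher and 2 lower and a median of 0.385 (0.186 with the length trend removed), with Rps19 at 0.89 (SE 0.113) and Rpl17 at 0.91 (SE 0.231). With the length trend removed, the AngII median of the missed subunits and carriers was 0.0262, where that of the members was 0.125. It was 0.0325 for assembly factors, 0.0352 for citric acid cycle genes and 0.0325 for mitochondrial ribosomal proteins. No gene of these lists passed the adjusted test with AngII.

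Among 18 regulators of mitochondrial biogenesis, 1 was higher and 0 lower (median 0.0552). This was Esrra, which encodes the receptor ERRα, at 26.9, 27.7 and 26.4 FPKM with AngII against 23.9, 19.8 and 20.2 in vehicle, without overlap (0.48, SE 0.129, edgeR adjusted p = 0.335), and its gene of 2156 bases is long. Peo1, the mitochondrial DNA helicase, was at 0.36 (SE 0.168). Nrf1 was at -0.43 (SE 0.243), Gabpa at -0.29 (SE 0.143) and Tfam, which packages and transcribes mitochondrial DNA, at 0.29 (SE 0.163). Ppargc1a, the coactivator PGC-1α, was near the lower limit of detection, at 0.0656, 0.306 and 0.0951 FPKM against 0.472, 0.234 and 0.673. These overlap, and its log2 fold change was -1.395 (SE 0.782).
With TRV023 and losartan the medians of these lists were within 0.1 of 0, other than 0.109 for cytosolic ribosomal proteins with losartan. The exceptions were the mitochondrial genome genes, at -0.298 with TRV023 and 0.249 with losartan, and none of the 13 reached an unadjusted p of 0.05 for these drugs.

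Counted reads per library ranged from 16106337 to 20096877. Marker genes of 12 cell types were summed as FPKM, and none was at 0 in all libraries. Alveolar type 2 cell markers, 9 of 9 listed, came to 10400 to 29800 FPKM. The ciliated cell markers came to 10 gene models, with Dnah5 under more than 1 model and Foxj1 not among them. Beside the AngII values of the members, they were at 209 to 376 FPKM against 338 to 466 in vehicle. Of these, 6 of 9 tested were lower at an unadjusted p under 0.05. Macrophage markers (11 of 12) were at 1450 to 1830 against 1100 to 1400, with 4 of 10 higher, and T and NK cell markers (8 of 8) at 81.4 to 110 against 65.6 to 76.1, with 3 of 6 higher. With TRV023, where the member median was -0.0156, macrophage markers were at 1540 to 1760 FPKM, also above vehicle, with 2 of 10 higher. Ciliated cell markers were at 260 to 431 FPKM with TRV023 and T and NK cell markers at 49.1 to 78.2, with none higher or lower. Cardiac muscle markers (13 of 15) came to 327 FPKM in Veh_963 and 30.1 to 75.1 in the other 11 libraries, and smooth muscle markers (6 of 7) to 2730 in Veh_963 and 649 to 1350 in the others. The AngII median of the members was 0.334 without Veh_963, and Cox6a2, the muscle isoform, was lower in Veh_963 than in the other two vehicle libraries. The part of ciliated cells, macrophages and T and NK cells in the values of the members was not tested.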

How the data were processed

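Total RNA of lung tissue was sequenced by a service provider, which per the study also did the first bioinformatic steps. The tables hold reads counted per gene. For the aligner, counter, strand setting and build, the sources used here give nothing. The authors deposited 1 table per drug, with the vehicle libraries repeated, holding read counts, counts divided by 1 factor per library (a normalized signal) and FPKM. The deposited FPKM follow counts per gene length, other than for 1501 of 12629 well-counted genes in the AngII table, of which Atp5c1 is the only member, at 1.38 times the level its listed length gives. Atp5f1, with few reads, was not among the well-counted genes, and its FPKM are also above what its listed length gives. In Veh_923 its 45 counts over 2063 bases stand at 3.10 FPKM, whereas 202 counts over 1990 bases stand at 5.09 FPKM for Atp5s. Columns with the authors' own fold changes and p-values were not used.

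Members were taken by the naming rule, and members, lists and motifs were chosen with earlier results of these data known. Counts were tested per drug (3 against 3 rats) in edgeR 4.0.16 (R 4.3.3) with filterByExpr, TMM, glmQLFit and glmQLFTest, with Benjamini-Hochberg adjustment over all genes and a threshold of 0.05. The SE is the log2 fold change divided by the root of F. Drugs were compared in 1 fit of the 12 libraries. Named members are those called by edgeR or DESeq2, in each complex the 4 with the smallest edgeR p for AngII (2 in II and III), the 2 for TRV023 and the 1 for losartan, the 2 highest and the 1 lowest by vehicle FPKM, the one with the most negative AngII value, and tissue isoforms. Of each pathway list the 2 genes with the smallest AngII p were named, with 5 regulators. Alternatives were DESeq2 1.42.0, limma 3.58.1 (voom, or log2(FPKM + 1) and log2(FPKM + 0.1) for genes of at least 1 FPKM), RLE, library totals, no filter, a minimum of 10 counts per library, a joint fit of the 4 groups, a threshold of 0.1, lowess removal of the length trend (span 0.3), each library left out, animals numbered 96x left out, and, chosen after seeing the data, members of at least 10 CPM. Scripts were tested on simulated counts.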

Additional observations from a re-analysis of the deposited data

How the results depend on the processing

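Most values kept their direction and their side of the threshold: of those that answer a comparison, 402 stayed within the spread between libraries or within 1.5 times the count, and 21 moved. Of the other values, 719 stayed so, 29 moved, 16 reversed and 1 became stronger. The spread for the AngII median of the members was 0.141, so 0.142 with library totals, against 0.277, counted as staying. The other values include the AngII count of higher members, 29 in the main fit and 6 with the length trend removed. By DESeq2 1 member was called for AngII, against 0 in edgeR. With the length trend removed, the AngII median was 0.125 over the tested members, 0.122 in complex I, 0.102 in II, 0.168 in IV and 0.0917 in V, and Cox7a2 on chromosome 8 was at -0.00317. On log2(FPKM + 1), log2(FPKM + 0.1) and with library totals, complex II was at 0.04, 0.0403 and 0.0419, complex III at 0.122, 0.123 and 0.122, and Sdha at -0.118, -0.12 and -0.124. Complex V was at 0.132 on both FPKM scales, and Sdha at -0.00104 with at least 10 counts in every library. These FPKM and library-total settings also lower the median of all genes, and the cause of the other moves was not tested. When 1 library was left out in turn, the AngII values ranged from 0.101 to 0.267 for complex II, from -0.0846 to 0.111 for Sdha and from -0.1 to 0.0407 for Atp5b. The TRV023 values ranged from -0.00358 to 0.139 for Uqcrfs1 and from -0.0987 to 1.76 for Atp5f1, and the losartan median of complex III from -0.103 to 0.163. Animals numbered 96x were left out because the labels do not explain this number series. Without them, losartan was left with Los_925 alone, assumed to vary like the other libraries, and the medians were -0.102 over the members, -0.151 in complex I, -0.199 in III and -0.102 in V, with Sdhd at -0.047 and Atp5d at -0.16, and Atp5b with AngII was at 0.027. No paired analysis was possible because the groups share no replicate number. With 3 rats a group, the median SE of a member was 0.154 for AngII, 0.144 for TRV023 and 0.168 for losartan on the log2 scale.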
